A study of Macaca mulatta with 8 samples.

Results

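Interleukin 1 and interleukin 6 signalling were followed in macaque granulosa cells through 4 genes, the ligand IL1B, its decoy receptor IL1R2, the ligand IL6 and the shared receptor subunit IL6ST. Every probe set to which the array's annotation gave exactly 1 of these symbols was taken, whatever its values, which made 10 of the 52766 probe sets tested: 3 for IL1B, 4 for IL1R2, 2 for IL6 and 1 for IL6ST. Granulosa cells surround and nourish the egg and make the oestrogen of the follicle. The samples came from rhesus macaques (Macaca mulatta) and were compared on 4 VVM-GC arrays and 4 PM-GC arrays. VVM-GC cells were taken after stimulation with follicle-stimulating hormone (FSH) followed by in vivo maturation under human chorionic gonadotropin (hCG), the ovulatory stimulus. PM-GC cells were taken before maturation, under FSH alone, so all 8 samples share the FSH treatment. The source labels speak of cells from cumulus-oocyte complexes, while the series design calls them mural granulosa cells. The sources used here do not give the animals' age, the time from hCG to collection, or which animal or follicle lies behind each array. The p-values therefore measure only the spread between these samples, which may be technical. Each sample began as 50 ng of total RNA, which was amplified linearly before labelling.

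Interleukin 1 beta is an inflammatory cytokine that is made as an inactive precursor, cut to its active form by a caspase and sensed by a receptor, IL1R1, that needs the accessory chain IL1RAP. IL1R2 binds the same cytokine but lacks the intracellular signalling domain, so it acts as a decoy, and IL1RN is a secreted antagonist that occupies the receptor. Interleukin 6 binds its own receptor, IL6R, and both then join IL6ST, also called gp130, which starts JAK and STAT3 signalling and which LIF, interleukin 11 and oncostatin M also use. Ovulation has long been described as resembling an inflammatory reaction, and both cytokines have been studied in ovulating follicles of several mammals.

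Values below are log2 intensities unless a linear intensity is named, and a change is the mean of VVM-GC minus the mean of PM-GC on the log2 scale. The array medians lay between 5.44 and 5.54, and a probe set under them is called dim here, because the table has no detection calls. Of 12 granulosa cell markers that could be matched, none was dim on every array. INHA, the alpha subunit of inhibin, averaged 13.50 ± 0.19 in VVM-GC and 14.07 ± 0.08 in PM-GC (SD, n = 4 each), FST, the activin binder follistatin, averaged 12.26 ± 0.18 in VVM-GC and 11.94 ± 0.26 in PM-GC, and INHBA, an activin subunit, averaged 11.12 ± 0.23 in VVM-GC and 12.76 ± 0.19 in PM-GC. Of the 12 markers 10, INHA and INHBA among them, were lower in VVM-GC, 1, STAR, was higher, and FST did not pass. The largest decreases were those of INHBB, CYP19A1 and HSD17B1. Over all genes 23.8% were called in either direction. Among 11 endothelial markers 1 (ENG) was higher and none lower, among 4 theca markers 1 (CYP17A1) was lower and none higher, among 6 stromal markers 1 (TAGLN) was higher and none lower, and among 9 oocyte markers 1 was higher and none lower. That 1 was KIT, a receptor that other cells also express, which rose by 3.07 (SE 0.33, adjusted p = 0.000178). The calls of CYP17A1 and TAGLN were lost in most fits that left out 1 array, and those of ENG, CYP17A1 and TAGLN in the fit on probe set means (adjusted p = 0.259, 0.289 and 0.0844). CYP17A1 was also dim on every array, from 4.32 to 4.82 in VVM-GC and 4.83 to 5.12 in PM-GC.

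Across the 4 genes, 2 probe sets passed the threshold of 0.05 on the adjusted p of limma (lmFit and eBayes, Benjamini-Hochberg over all 52766 probe sets). These were 1 IL1R2 probe set and the IL6ST probe set, both higher in VVM-GC. None of the 10 was lower. Over all probe sets 14.1% were called, 7.24% higher and 6.85% lower. With 10 probe sets of 4 genes, 2 calls are too few to read as a share above that background. The groups did not overlap for 3 of the 10 probe sets, where 19.3% of all probe sets had groups that did not overlap. All 10 changes were positive, from 0.07 to 2.94, beside a median of -0.07 over all probe sets. They come from only 4 genes, chosen with earlier results of these data known. The share of positive changes over all probe sets was not counted, so these signs describe the members only. On no array did the IL6 probe sets or Mmu.14715.2.S1_at of IL1R2 exceed the array median.

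**Figure D1:**
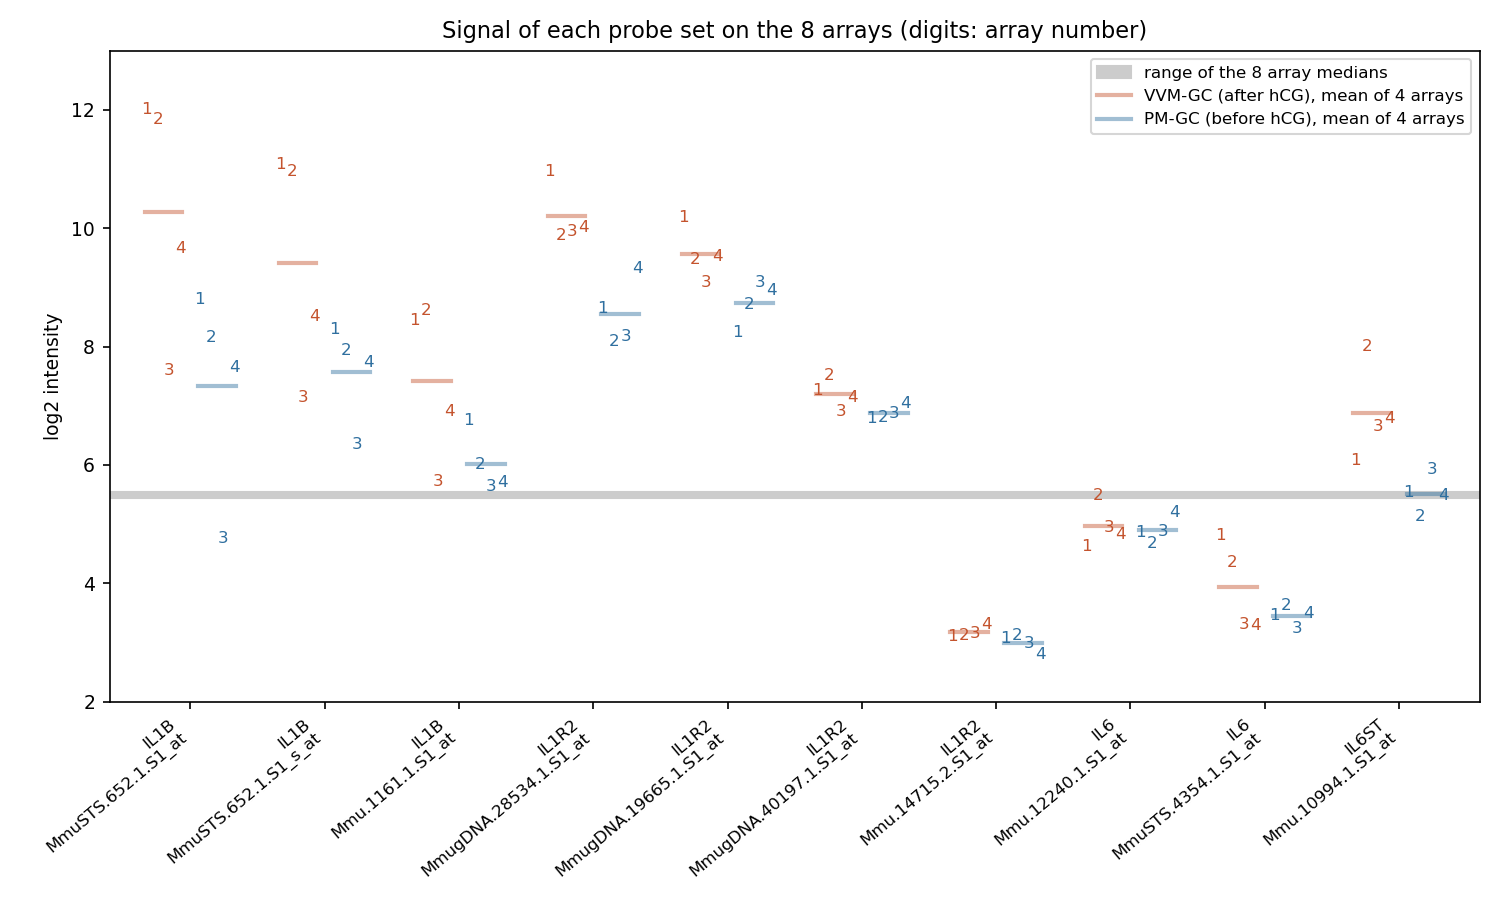
Log2 intensity (vertical axis) of the 10 probe sets of IL1B, IL1R2, IL6 and IL6ST, with VVM-GC at the left and PM-GC at the right of each pair, digits giving the array number, horizontal bars the means of 4 arrays and the grey band the array medians of 5.44 to 5.54. IL1B spans 7.59 to 12.01 in VVM-GC on its brightest probe set, while both IL6 probe sets lie at or under the band on all arrays.

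IL1B had a strong signal that varied widely between arrays within both groups. Its brightest probe set, MmuSTS.652.1.S1_at, read 12.01, 11.84, 7.59 and 9.65 on VVM-GC arrays 1 to 4, against 8.79, 8.15, 4.75 and 7.64 on PM-GC arrays 1 to 4. Arrays 1 and 2 of VVM-GC stood far above all PM-GC arrays, array 4 stood above them by less, and array 3 of VVM-GC lay below PM-GC arrays 1, 2 and 4. The mean was 10.27 ± 2.09 in VVM-GC and 7.33 ± 1.79 in PM-GC (SD, n = 4 each). The change of 2.94 (SE 1.08, 95% interval 0.53 to 5.35), a 7.69-fold difference, did not pass (adjusted p = 0.108, unadjusted p = 0.0216). In absolute size the change ranked 380 among the 52766 probe sets, yet the spread of 4.42 from the lowest to the highest VVM-GC array exceeded it.

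The other IL1B probe sets ordered the VVM-GC arrays alike, with 1 and 2 high, 4 lower and 3 lowest. In PM-GC too, all 3 IL1B probe sets were highest on array 1, then 2, then 4, and lowest on array 3. MmuSTS.652.1.S1_s_at, whose suffix marks probes shared by more than a single transcript, read 11.08, 10.96, 7.13 and 8.51 in VVM-GC, against 8.29, 7.93, 6.35 and 7.72 in PM-GC. Mmu.1161.1.S1_at was dimmer and read 8.45, 8.62, 5.72 and 6.90 in VVM-GC, against 6.75, 6.01, 5.64 and 5.70 in PM-GC. In both, array 3 of VVM-GC lay within the range of PM-GC and the other 3 VVM-GC arrays lay above it. The changes were 1.85 (SE 0.83, adjusted p = 0.188) and 1.40 (SE 0.58, adjusted p = 0.152). Without VVM-GC array 3 all 3 IL1B probe sets passed, with changes of 3.84, 2.61 and 1.97 (adjusted p = 0.0235, 0.0274 and 0.0132). Over the single arrays left out, the adjusted p of the brightest probe set ranged from 0.0235 to 0.238.

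Leukocytes make much of the body's IL1B, so markers of these cells were read on the same arrays. Of 18 leukocyte markers matched, none was higher and 1, CSF1R, the receptor of macrophage growth factor, was lower in VVM-GC by 2.09. CD68 narrowly missed a call as higher on its brightest probe set (change 0.84, adjusted p = 0.0502), while the other of its 2 probe sets was lower, by 0.62. The median change of the list was -0.21, beside -0.09 over all genes. The summed linear intensity of the 18 was 4371, 4694, 2158 and 3737 on VVM-GC arrays 1 to 4, against 4749, 5444, 3720 and 3552 on PM-GC arrays 1 to 4. Array 3 of VVM-GC, the lowest of that group for IL1B, was thus also the lowest of all 8 arrays for the leukocyte sum. In PM-GC, array 3 was the lowest for IL1B, but array 4 had the lowest sum. MRC1 was the brightest of the 18 on every array and weighs most in these sums. By the mean log2 of the 18, array 3 was the lowest of both groups (5.92 in VVM-GC and 6.71 in PM-GC). In VVM-GC, 10 of the 18 markers had their lowest value on array 3. The other 8 did not, among them S100A8, S100A9, ITGB2 and CD53, lowest on array 4, and AIF1 and CD79A, lowest on array 1. The share of all genes lowest on array 3 was not counted, so the 10 of 18 describe these markers only. PTPRC, the common leukocyte antigen CD45, read 6.96, 7.39, 3.89 and 5.78 in VVM-GC, against 6.82, 6.11, 6.12 and 6.92 in PM-GC. LYZ, the lysozyme of myeloid cells, read 7.55, 7.62, 4.18 and 8.12 in VVM-GC, against 7.29, 7.14, 5.94 and 6.83 in PM-GC. MRC1, a macrophage receptor, averaged 10.68 ± 0.52 in VVM-GC and 10.84 ± 0.72 in PM-GC, and TYROBP, a myeloid adaptor, averaged 7.72 ± 1.03 in VVM-GC and 7.81 ± 0.64 in PM-GC. These genes, other than MRC1, TYROBP and CSF1R, were named after their values were seen. The arrays have no detection calls, and 1 of the 18 markers was dim on all of them. How far leukocytes contribute to the IL1B signal was not tested, and in such bulk samples fewer cells of a type and less RNA per cell cannot be told apart.

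**Figure D2:**
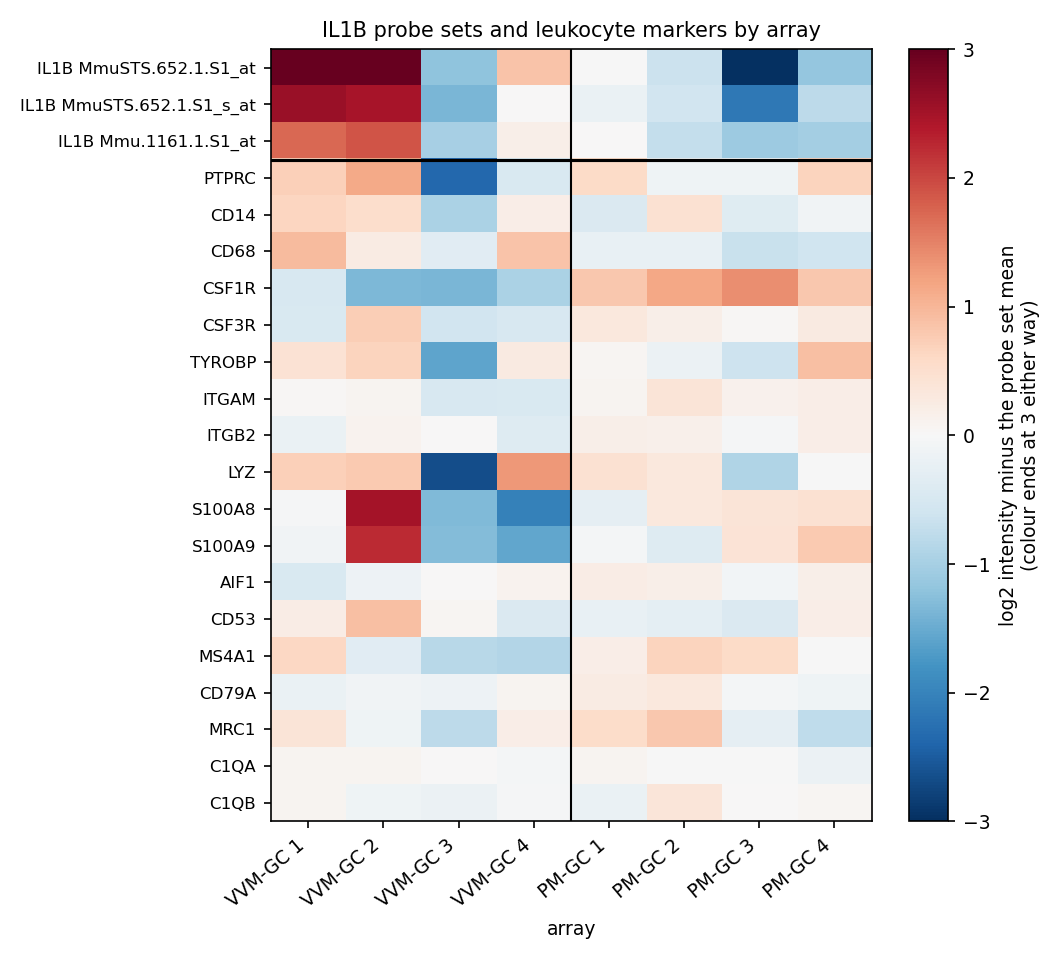
Log2 intensity minus the mean of each probe set over the 8 arrays (colour, ending at 3 in either direction) for the 3 IL1B probe sets, above the line, and all 18 leukocyte markers, below it, on VVM-GC arrays at the left and PM-GC arrays at the right. Array 3 is the lowest of its group for all 3 IL1B probe sets, in VVM-GC and in PM-GC. VVM-GC array 3 is also the lowest of its group for 10 of the 18 markers. Of the leukocyte markers 1, CSF1R, passed the test between the groups.

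IL1R2, the decoy receptor, was the clearest difference among the 4 genes. Its probe set MmugDNA.28534.1.S1_at read 10.96, 9.87, 9.95 and 10.02 in VVM-GC, against 8.65, 8.08, 8.17 and 9.31 in PM-GC. All VVM-GC arrays lay above all PM-GC arrays, by at least 0.56. The mean was 10.20 ± 0.51 in VVM-GC and 8.55 ± 0.56 in PM-GC (SD, n = 4 each). It rose by 1.65 (SE 0.31, 95% interval 0.95 to 2.34), which is 3.13-fold, with an adjusted p of 0.006 in limma. The call held with each array left out in turn, where the change lay between 1.39 and 1.90 and the adjusted p did not exceed 0.0221. Array 1 of VVM-GC stood above the other 3 of its group.

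The other IL1R2 probe sets gave smaller differences in the same direction. MmugDNA.19665.1.S1_at read 10.17, 9.46, 9.09 and 9.52 in VVM-GC, against 8.23, 8.72, 9.08 and 8.95 in PM-GC. Its groups were separated by only 0.01, between VVM-GC array 3 and PM-GC array 3. The change of 0.82 (SE 0.25) narrowly missed the threshold (adjusted p = 0.0539), and it passed without VVM-GC array 3 (0.98, adjusted p = 0.0258). Over single arrays left out, its adjusted p ranged from 0.0258 to 0.13. MmugDNA.40197.1.S1_at averaged 7.20 ± 0.25 in VVM-GC and 6.87 ± 0.12 in PM-GC, and the groups overlapped (change 0.33, SE 0.14, adjusted p = 0.157). Mmu.14715.2.S1_at was dim on all 8 arrays, at 3.17 ± 0.09 in VVM-GC and 2.99 ± 0.14 in PM-GC (change 0.18, SE 0.11, adjusted p = 0.341). The average of the 4 IL1R2 probe sets was higher in VVM-GC by 0.74 (adjusted p = 0.00445 in limma over genes).

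Whether probe sets of the same gene changed by different amounts was tested on their difference within each array, by exact two-sided permutation tests of 4 against 4 arrays, over 10 pairs in all. The smallest p these tests can give is 0.0286. Between the IL1R2 probe set with the largest change and the probe sets MmugDNA.40197.1.S1_at and Mmu.14715.2.S1_at the changes differed by 1.31 and 1.47, each with an exact p of 0.0286 and an adjusted p of 0.143. The 3 pairs of IL1B probe sets differed by 1.10, 1.54 and 0.45, with exact p = 0.0571, 0.114 and 0.314. No pair passed after adjustment over the 10, where tests with so high a smallest p could hardly pass, so this does not show that the probe sets change alike. Mmu.14715.2.S1_at was moreover dim on all arrays. For the actin control, the log2 signal at the 3' end exceeded that at the 5' end by 4.47 to 5.18 in VVM-GC and 4.70 to 4.80 in PM-GC. Whether the position of the probes bears on the differences between probe sets was not tested.

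IL6 gave a low signal in both groups. Mmu.12240.1.S1_at read 4.62, 5.48, 4.95 and 4.82 in VVM-GC, against 4.86, 4.67, 4.87 and 5.20 in PM-GC. The groups overlapped fully and the change was 0.07 (SE 0.19, adjusted p = 0.856). Its 95% interval ran from -0.35 to 0.49, and without VVM-GC array 2 the change was -0.10. MmuSTS.4354.1.S1_at read 4.81, 4.34, 3.30 and 3.28 in VVM-GC, against 3.45, 3.62, 3.23 and 3.49 in PM-GC. Here VVM-GC arrays 1 and 2, the arrays with the most IL1B, lay above all PM-GC arrays, and arrays 3 and 4 lay among them (change 0.48, SE 0.32, 95% interval -0.23 to 1.20, adjusted p = 0.374). On no array was either IL6 probe set above the median of that array.

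IL6ST, the shared signal-transducing subunit, was measured by a single probe set, Mmu.10994.1.S1_at. It read 6.08, 8.01, 6.64 and 6.78 in VVM-GC, against 5.53, 5.12, 5.91 and 5.48 in PM-GC. All VVM-GC arrays lay above all PM-GC arrays, the closest by 0.16, and array 2 of VVM-GC was the highest. The mean was 6.88 ± 0.81 in VVM-GC and 5.51 ± 0.32 in PM-GC (SD, n = 4 each). It rose by 1.37 (SE 0.35, 95% interval 0.58 to 2.16), a 2.58-fold difference with an adjusted p of 0.0287 in limma. The PM-GC values lay at the array medians, and with 32 added to each intensity the change was 0.97 and did not pass (adjusted p = 0.0861). The call was also lost without PM-GC array 1, 2 or 4 (adjusted p = 0.0665, 0.0805 and 0.073).

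**Figure D3:**
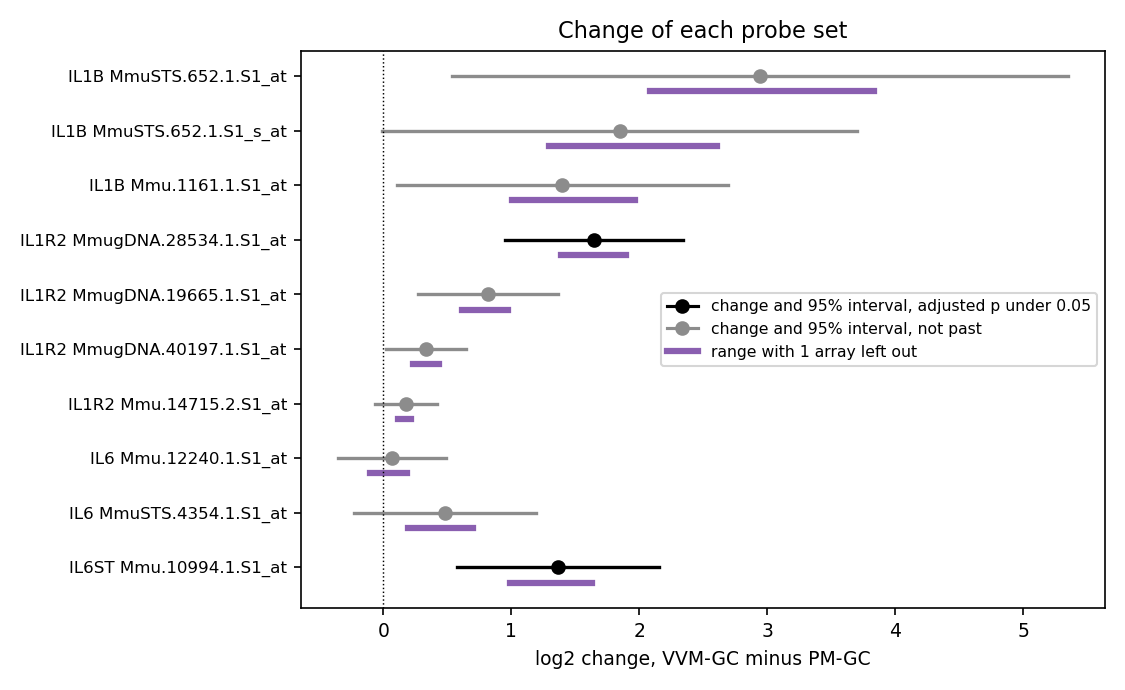
Log2 change, VVM-GC minus PM-GC (horizontal axis), of each of the 10 probe sets with its 95% interval, black where the adjusted p was under 0.05 and grey where it was not, and in purple the range of the change when 1 array was left out. The IL1R2 probe set at 1.65 and the IL6ST probe set at 1.37 are the black ones, and the largest change, that of IL1B at 2.94, has the widest interval.

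The remaining genes of both pathways were read at the level of genes, each by its probe set with the highest mean. In this fit over 14132 genes 11.3% were called higher and 12.5% lower in VVM-GC, and the groups did not overlap for 27.2%. Of 114 matched pathway genes other than the 4, 21 were higher and 16 lower, 18.4% and 14.04%, and 77 did not pass. Their median change was 0.02, beside -0.09 over all genes. The lists were chosen with earlier results of these data known, so the counts describe the lists and support nothing further.

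Among 10 interleukin 1 family ligands, IL1B included, none passed, with a median change of -0.01. IL1RN, the receptor antagonist, read 8.57, 8.60, 4.92 and 7.76 in VVM-GC, against 6.21, 6.22, 5.10 and 5.61 in PM-GC. As for IL1B, VVM-GC arrays 1, 2 and 4 were above all PM-GC arrays and array 3 was not. Its change of 1.68 (SE 0.73) did not pass (adjusted p = 0.133), and without VVM-GC array 3 it was 2.52 (adjusted p = 0.000622). Its adjusted p was at most 0.286 over single arrays left out, and the mean of its 3 probe sets changed by 0.53. IL1A, the other classical agonist, was dim at 3.84 ± 0.33 in VVM-GC and 3.99 ± 0.14 in PM-GC (adjusted p = 0.559).

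Of 6 matched receptors of this family, IL1R2 included, 2 rose and 1 fell. IL1RL1, the receptor of interleukin 33, read 9.35, 8.66, 5.73 and 6.11 in VVM-GC, against 4.94, 5.20, 4.83 and 4.81 in PM-GC. It rose by 2.52 (SE 0.73, adjusted p = 0.0325), but 1 of its 4 probe sets passed, and the call was lost without VVM-GC array 1 or 2 or any single PM-GC array (adjusted p = 0.059 to 0.0824), and with 32 added to each intensity (adjusted p = 0.0878). IL1RAPL1, a receptor-like protein known mainly from neuronal synapses, fell by 2.47 (SE 0.38, adjusted p = 0.00139), from both of its probe sets. IL1RAP, the accessory chain, was dim or near the array medians, at 5.35 ± 0.20 in VVM-GC and 5.09 ± 0.22 in PM-GC (adjusted p = 0.247). IL1R1 and the adaptor MYD88 could not be matched to a probe set with a single symbol and were not analysed here.

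Of 7 matched genes on the interleukin 1 processing list, which also holds sensors and adaptors, 2 rose and 1 fell. The caspase gene CASP1, on the same list, could not be matched to a probe set with a single symbol and was not analysed here. AIM2, a sensor of cytosolic DNA that assembles an inflammasome, averaged 11.76 ± 0.46 in VVM-GC and 7.60 ± 1.02 in PM-GC. It rose by 4.16 (SE 0.45, adjusted p = 0.000178) on its brightest probe set, the only 1 of its 4 to pass, and the mean of the 4 rose by 0.88. CASP4, an inflammatory caspase, rose by 1.23 (SE 0.25), on 1 of its 2 probe sets. PYCARD, the adaptor that links inflammasome sensors to caspase, fell by 0.57 (SE 0.13).

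Of 22 genes that carry the signal from the receptor to NF-kB, 1 rose and 4 fell. PELI2, a ubiquitin ligase of the Pellino family, rose by 1.29 (SE 0.19, adjusted p = 0.000878). Its relative PELI1 fell by 0.58 on the brightest probe set, but 1 of its 3 probe sets was higher, and their mean differed by -0.05. IRAK1, a kinase of the receptor complex, fell by 0.54, ECSIT, an adaptor, fell by 0.58 and NFKB2, an NF-kB subunit, fell by 0.59. These 3 calls were fragile, since IRAK1 was lost after median centring and without VVM-GC array 1, 2 or 4 or PM-GC array 3 or 4, ECSIT without VVM-GC array 1, 2 or 4 or PM-GC array 1, 3 or 4, and NFKB2 without VVM-GC array 1 or 3 or PM-GC array 1, 2 or 3 (adjusted p = 0.055 to 0.095). The mean of the 3 NFKB2 probe sets did not pass (adjusted p = 0.264). With 1 array left out the list had 1 to 3 genes lower.

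Of 22 known NF-kB target genes, 3 rose, 3 fell and 16 did not pass, with a median change of -0.01. The risers were PTX3 and TNFAIP6, proteins that bind into the hyaluronan matrix, by 6.74 and 5.43, and MMP1, an interstitial collagenase, by 2.75 (SE 0.48, on 1 of its 2 probe sets). All 3 were dim on every PM-GC array, and with 32 added to each intensity they rose by 4.47, 4.25 and 1.52. NOS2, the inducible nitric oxide synthase, fell by 2.36 (SE 0.21, on 3 of its 4 probe sets) and TNFAIP2 fell by 2.24 (SE 0.18, on 1 of its 2 probe sets). VCAM1, an adhesion molecule, fell by 1.32 (SE 0.37, adjusted p = 0.0296), and that call was lost without VVM-GC array 3 or PM-GC array 1, 3 or 4 (adjusted p = 0.0575 to 0.0794) and with 32 added (0.0512). Among the 16, BIRC3, CXCL6, LCN2 and PLAU each had 1 dimmer probe set that passed as higher. In the fit on probe set means BIRC3 rose by 0.87 (adjusted p = 0.00853). These genes were named after their values were seen. PTGS2, PTGES, CXCL1, CXCL2 and CXCL3 of this list could not be matched and were not analysed here.

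Among 8 matched interleukin 6 family ligands none rose and 1 fell. CTF1, cardiotrophin, fell by 0.44 (SE 0.13, adjusted p = 0.0414), a call lost without any single array except VVM-GC array 4 and PM-GC array 4 (adjusted p = 0.082 to 0.106), after median centring (0.0692) and with a trended prior (0.0639). The only CTF1 probe set did not pass in the fit over all probe sets. LIF, which signals through LIFR and IL6ST, read 8.59, 8.11, 6.51 and 6.53 in VVM-GC, against 6.28, 6.60, 6.24 and 6.26 in PM-GC. Arrays 1 and 2 of VVM-GC were again the high ones, and the change of 1.09 (SE 0.44) did not pass (adjusted p = 0.108), though it did without VVM-GC array 3 or 4 (adjusted p = 0.0379 and 0.0457). Interleukin 11 was not analysed here.

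The receptor list of this family had 8 matched genes, IL6ST and the receptor-shedding protease ADAM10 included, of which 2 rose and 2 fell. OSMR, which pairs with IL6ST to bind oncostatin M, averaged 11.96 ± 0.19 in VVM-GC and 9.27 ± 0.54 in PM-GC. It rose by 2.69 (SE 0.24, adjusted p = 6.72e-05), on 2 of its 3 probe sets. IL11RA, the interleukin 11 receptor, averaged 9.41 ± 0.33 in VVM-GC and 11.30 ± 0.25 in PM-GC and fell by 1.89 (SE 0.19, adjusted p = 0.000112). LIFR, the LIF receptor, fell by 0.45 (SE 0.11, adjusted p = 0.0171), from 1 probe set near the array medians. IL6R, the specific receptor of interleukin 6, averaged 4.91 ± 0.57 in VVM-GC and 4.69 ± 0.12 in PM-GC (adjusted p = 0.544) and was dim on every array except VVM-GC array 2, where it read 5.74.

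Of 18 genes of JAK and STAT signalling, 6 rose, 3 fell and 9 did not pass, with a median change of 0.30. STAT3, the main transcription factor of this pathway, had 1 probe set that read 5.27, 5.05, 4.69 and 4.54 in VVM-GC, against 3.49, 3.44, 3.44 and 3.49 in PM-GC. The groups were far apart, but the probe set was dim on every array. It rose by 1.42 (SE 0.16, adjusted p = 0.000225), or by 0.52 with 32 added to each intensity. STAT5B, a related factor, rose by 1.38 (SE 0.14), on 3 of its 4 probe sets. PTPN11, a phosphatase recruited by IL6ST, rose by 1.01 (SE 0.20), on 1 of its 3 probe sets. SHC1, an adaptor, rose by 0.82 (SE 0.14), on 1 of its 2 probe sets. CISH, a feedback inhibitor of cytokine receptors, fell by 1.16 (SE 0.23), on 1 of its 2 probe sets. The phosphatase PTPN6 fell by 0.67 (SE 0.16) and PIAS2, a SUMO ligase, fell by 0.64 (SE 0.15). SOCS3, the feedback inhibitor that STAT3 induces and that binds IL6ST, averaged 5.33 ± 0.25 in VVM-GC and 4.91 ± 0.10 in PM-GC. Its groups did not overlap, and its change of 0.42 (SE 0.14) narrowly missed the threshold (adjusted p = 0.0519), which it passed without VVM-GC array 1 or 3 (adjusted p = 0.0385 and 0.0365), after repeated quantile normalization or median centring (0.0247 and 0.0294), with a trended prior (0.0399) and in the fit on probe set means (0.0415). Its adjusted p was at most 0.13 with 1 array left out. SOCS3 was dim on most arrays, and with 32 added to each intensity its change was 0.22 (adjusted p = 0.0693). The kinase JAK1 was not analysed here.

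Of 18 known STAT3 target genes, 8 rose, 1 fell and 9 did not pass, with a median change of 0.27. OSMR is counted here too. TIMP1, a metalloprotease inhibitor, rose by 3.33 (SE 0.15) on 1 of its 3 probe sets, and CEBPB and CEBPD, transcription factors of the acute-phase response, rose by 2.34 (SE 0.25) and 2.23 (SE 0.29). Of the acute-phase proteins that the liver secretes, SERPINA3, a protease inhibitor, rose by 1.49 (SE 0.20, adjusted p = 0.000638), on 3 of its 5 probe sets. FGA, FGB, FGG, HP, LBP and CRP did not pass, and FGA, FGB and FGG were dim. These 7 genes were named after their values were seen. FOS fell by 1.07 (SE 0.33, adjusted p = 0.0434), and this call was lost without any single array except VVM-GC array 4 (adjusted p = 0.0503 to 0.107), after median centring (0.0576) and with 32 added (0.0681). The only FOS probe set did not pass in the fit over all probe sets.

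**Figure D4:**
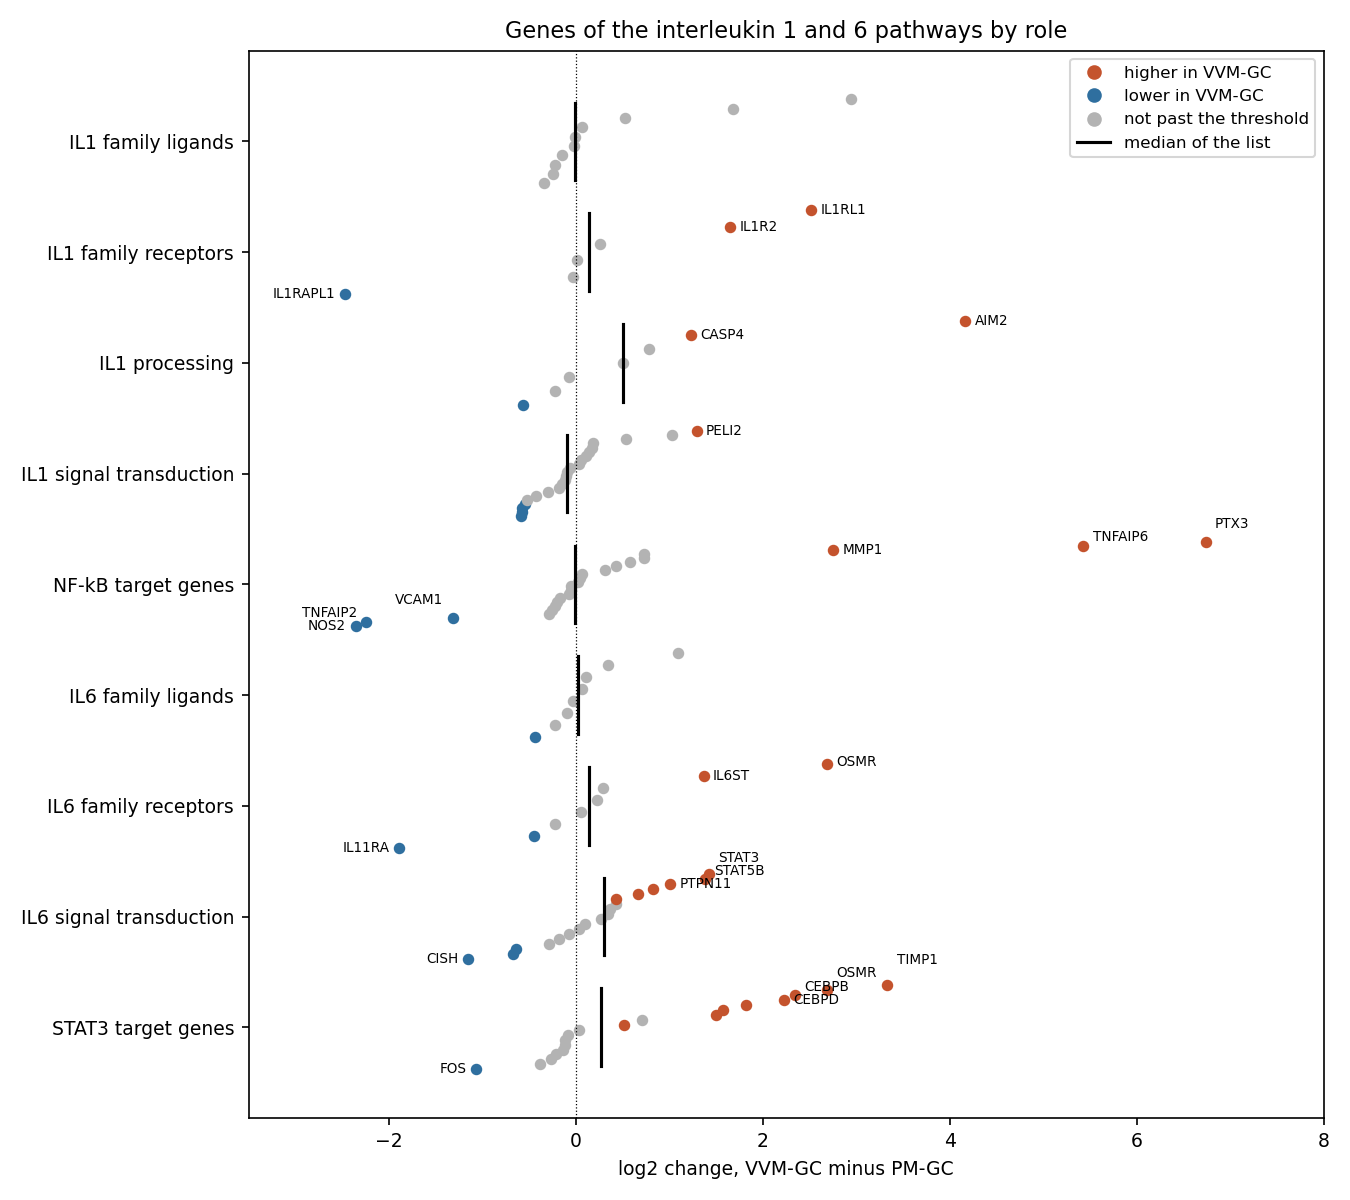
Log2 change, VVM-GC minus PM-GC (horizontal axis), of each matched gene of 9 lists ordered by role, coloured by whether it was higher, lower or not past the threshold, with the median of each list as a black bar. The ligand lists hold no gene that rose, while receptor, JAK and STAT and target lists hold genes on both sides.

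Leaving out VVM-GC array 3 added 6 calls among the 114 other pathway genes, those of IL1RN, LIF, TNFAIP3, SOD2, PIM1 and SOCS3, which is 5.26% of them. Over all genes it added 383 calls, or 2.71%. It also ended 6 calls among the 114, again 5.26%, and 2.79% over all genes, so the number of calls among the 114 did not change. Leaving out any other array added 0 to 3 calls among the 114. The genes beside IL1RN, LIF and SOCS3 in this list were named after their values were seen.

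The profiles nearest to the rising IL1R2 probe set, by the root mean square difference over the 8 arrays after centring each probe set, were those of TMEM266, a membrane protein, at 0.29, SSBP1, a mitochondrial DNA-binding protein, at 0.30 and CHRM3, a muscarinic acetylcholine receptor, at 0.31. Their own changes were 1.49, 1.56 and 1.51. Nearest to IL6ST were CDK2AP1, a regulator of the cell cycle, at 0.24, CXADR, a junction protein that is also the coxsackievirus and adenovirus receptor, at 0.27 and JMY, an actin and p53 cofactor, at 0.30. Of these CXADR did not pass itself (change 1.02, adjusted p = 0.094).

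Position along the chromosome was read from the gene order of the RefSeq table of the T2T-MMU8v2.0 assembly, taking the 8 nearest protein-coding genes on either side. This comparison was added after the members' values were seen. IL1B lies in a cluster of related ligands that runs from IL1A to IL1RN, and none of its 12 matched neighbours passed, where 23.8% of all genes did. IL1R2 lies beside IL1R1, IL1RL2, IL1RL1, IL18R1 and IL18RAP. Of its 9 matched neighbours 3 rose and 1 fell. The risers were IL1RL1, the adjacent kinase gene MAP4K4, by 2.51, and TBC1D8, by 2.51, while IL1RL2 and IL18RAP differed by -0.03 and 0.01. Of 9 matched neighbours of IL6ST none rose and 4 fell, among them the adjacent IL31RA, another receptor of the gp130 type, which fell by 0.51 (adjusted p = 0.0391). Of 15 matched neighbours of IL6, 1 rose and 1 fell.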

How the data were processed

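The deposited table holds linear intensity values of Affymetrix rhesus macaque arrays. Per the submitters' processing notes, the authors used RMA (background correction, quantile normalization and summary by probe set) in Affymetrix Expression Console, and the sources used here name no version. The scale was read from the values, whose array medians were 43.5 to 46.5, and log2 was taken with no further normalization. Of 52865 table entries, 99 array controls were left out. Of the rest, 24956 had 1 gene symbol in the platform annotation, 361 had several and 27449 had none. Of the first, 24616 had a gene ID in the RefSeq table, which gave their current symbol for the lists. limma 3.58.1 in R 4.3.3 compared VVM-GC with PM-GC over all probe sets and over genes, and was tested on simulated data. The number of arrays limits the precision.

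Members and lists were chosen with earlier results of these data known. The text names all members, fixed partners, up to 4 genes per pathway list and direction by size of change, for cell type lists up to 3 per direction and the brightest 3, and the 3 nearest profiles. The 9 pathway lists cover ligands, receptors, processing, transduction and targets, and the 6 cell type lists granulosa cells, leukocytes, endothelium, theca, stroma and oocytes. Alternatives were other scaling, 32 added, a filter on dim probe sets, trended and robust eBayes, single arrays left out, a replicate block and, for genes, probe set means. Sequences of these genes were not used here.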

Additional observations from a re-analysis of the deposited data

Results flagged for a closer look

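In 1 of the 20 groups of 4 arrays examined for the 10 probe sets, a single array stood far from the others. IL1R2 on MmugDNA.28534.1.S1_at read 10.96 on VVM-GC array 1, where the other VVM-GC arrays read 9.87 to 10.02, so that 0.867 of the group's range lay between this array and the next. Chance alone flags about 1 in 20 such groups. Without that array the change was 1.39 and still passed.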

How the results depend on the processing

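The rise of IL1R2 on MmugDNA.28534.1.S1_at passed in all 15 alternatives (changes of 1.39 to 1.90, adjusted p = 0.00291 to 0.0221). IL6ST passed in 10 of 15, and was lost with 32 added (0.97), with the replicate block (1.37, adjusted p = 0.0617) and without PM-GC array 1, 2 or 4 (0.99 to 1.63 over all single arrays left out). IL1B passed only without VVM-GC array 3 on all 3 probe sets and, with the replicate block, on its first 2 probe sets (2.94 and 1.85, adjusted p = 0.00109 and 0.0366). Leaving out single arrays gave IL1B changes of 2.08 to 3.84, 1.29 to 2.61 and 1.002 to 1.97. IL1R2 on MmugDNA.19665.1.S1_at passed with the filter on dim probe sets (0.82, adjusted p = 0.0405) and without VVM-GC array 3 (0.61 to 0.98 over single arrays left out). The number of member probe sets higher, 2, was 1 with 32 added, 3 with the filter or the block, and 1 to 6 with 1 array left out, 6 being without VVM-GC array 3 and 1 without PM-GC array 1, 2 or 4. None was lower in any alternative. The filter on dim probe sets removed both IL6 probe sets and 1 of IL1R2, which have no value under it. The causes were not tested. Deviations of same-numbered samples correlated at -0.01 to 0.15, and 1 of 4 VVM-GC samples correlated best with its own number, so the numbers were not taken as pairs. With 4 samples per group, this check cannot show whether same-numbered samples share an animal, which remains unknown. With the replicate block IL1RN, SOCS3, TNFAIP3 and PIM1 passed (adjusted p = 0.0425, 0.0467, 0.0482 and 0.00941), and NFKB2, ECSIT, CTF1, VCAM1, FOS, PIAS3 and TAGLN did not (0.0923, 0.0697, 0.107, 0.0686, 0.0766, 0.0636 and 0.058). The count of all probe sets past the threshold stayed within 1.5 times of 7434. Signals under the array medians limit IL6, 1 IL1R2 probe set, STAT3 and, on most arrays, SOCS3.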
